A study of Mus musculus with 2 samples.

Results

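Cd209a-positive dendritic and monocyte-derived cells were studied among blood-derived leukocytes of the pressure-loaded mouse heart. A cell belonged to the set when it had at least 2 Cd209a UMIs (unique molecular identifiers, which count captured transcripts once each), no UMI of the T cell genes Cd3e and Cd3d or the B cell genes Cd79a and Cd79b, and less than 0.3% of its UMIs from C1qa, C1qb and C1qc, the macrophage complement genes. Of 12407 cells that passed the filters on depth, gene number and mitochondrial share, 56 met this rule, 18 in the LOY library and 38 in the control library. The cells were chosen by their own Cd209a, Cd3, Cd79 and C1q counts, so values of these genes are given below as a description only.

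The study, by its title, asks what loss of the Y chromosome in blood-forming cells does to the heart. The LOY library came from mice with transplanted bone marrow of genotype LOY, and the control library from mice with transplanted control marrow. All mice, controls included, underwent TAC (transverse aortic constriction, surgical narrowing of the aorta, which raises the pressure the left ventricle works against), and the labels give neither their age nor the way the Y chromosome was lost. Each library pooled the cells of 3 mice after sorting of live, DAPI-negative, CD45-positive and RFP-positive cells from digested left ventricles. With 1 pooled library per group there is no replicate check, no test was made of any difference, and the intervals (95%) cover counting error only.

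Dendritic cells take up antigen, cut it in lysosomes and show the fragments on MHC class II molecules to T cells. Cd209a is a mouse C-type lectin, related to human DC-SIGN, known from type 2 conventional dendritic cells and from dendritic-like cells that arise from monocytes. Both kinds carry much MHC class II and share many genes, so a short marker list seldom separates them.

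The LOY library held 5475 barcodes and 18710715 UMIs, and the control library 7276 barcodes and 42640861 UMIs. After filtering, 5415 LOY cells had a median of 3040 UMIs and 6992 control cells a median of 5233. The libraries shared 31 barcodes, none of them in a Cd209a-positive cell, and no UMI of either library (0) was assigned to RFP. Among the Cd209a-positive cells a doublet score marked 1 LOY cell and 2 control cells. These were kept, with their removal as an alternative.

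The Cd209a-positive cells made up 0.332% of LOY cells (exact binomial interval 0.197 to 0.525%) and 0.543% of control cells (0.385 to 0.745%). These shares depend on depth. The 18 LOY cells had between 1267 and 6057 UMIs with a median of 3376.5, whereas the 38 control cells had between 1659 and 13228 with a median of 8397. At those medians, 2 UMIs stand for 592 CPM (counts per 1000000 UMIs) in a LOY cell and for 238 CPM in a control cell. With a minimum of 300 CPM in place of the fixed count, a choice made after seeing the data, 27 LOY cells (0.499%) and 35 control cells (0.501%) met the rule. A minimum of 1 UMI gave 37 LOY cells (0.683%) and 49 control cells (0.701%), and a minimum of 3 UMIs gave 9 LOY cells (0.166%) and 35 control cells (0.501%). With every cell thinned to 2000 UMIs before the rule, 10 LOY cells (0.235%) and 29 control cells (0.459%) met it, as shares of the cells that deep. The LOY share was the lower under each of these settings, but the size of the gap rested on how the minimum was set.

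Within the set, LOY cells had 2 to 7 Cd209a UMIs with a median of 2.5, and 9 of 18 stood at the minimum. Control cells had 2 to 32 UMIs with a median of 14, and 3 of 38 stood at the minimum. Summed over cells, Cd209a had 838 CPM in LOY cells and 1761 CPM in control cells. At least 10 UMIs were found in 0 LOY cells and 29 control cells. The plot of Cd209a UMIs against depth shows that most control cells lie well above the minimum, while LOY cells crowd at it.

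**Figure D1:**
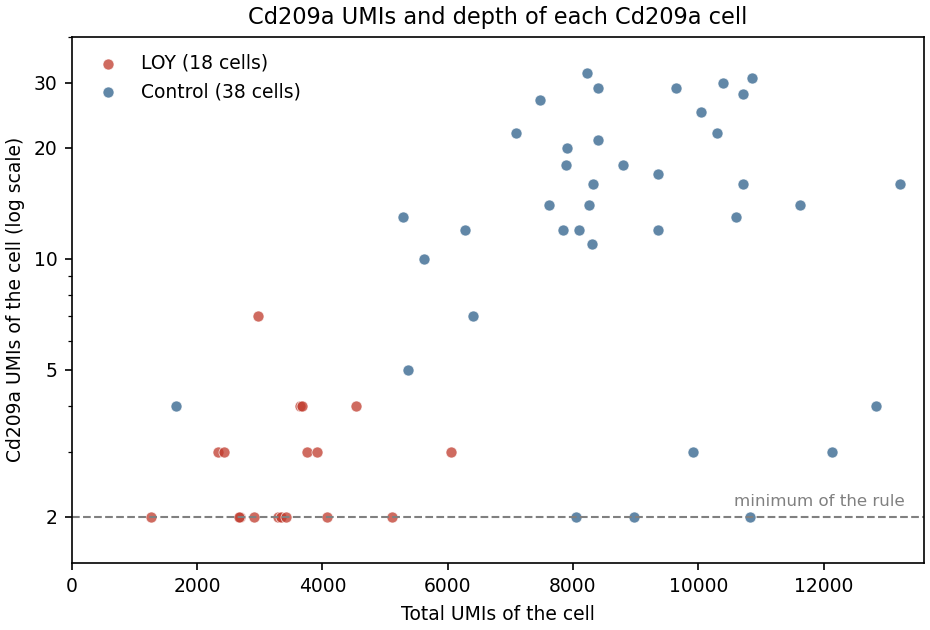
Cd209a UMIs (log scale) against total UMIs for each Cd209a-positive cell, in the LOY library (red, 18 cells) and the control library (blue, 38 cells); the dashed line is the minimum of 2 UMIs. No LOY cell has more than 7 Cd209a UMIs or more than 6057 UMIs in all, and the control median is 14.

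Cells just outside the minimum, with 1 Cd209a UMI, numbered 19 in the LOY library and 11 in the control library. In LOY cells, H2-Ab1 (an MHC class II chain) had 10117 CPM at 1 Cd209a UMI, 8208 at 2 and 6062 at 3 or more. In control cells the corresponding levels were 6774, 10266 and 13950 CPM. Lyz2 (lysozyme, abundant in monocytes and macrophages) had 10234 CPM in control cells with 1 Cd209a UMI and 933 in those with 2, and in LOY cells 2144 and 1669 CPM. The C1q limit cut through an empty range. The highest C1q share inside the set was 0.0391% in LOY cells and 0.111% in control cells, and the lowest outside it was 1.15% and 0.414% in the same order.

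The label was checked against the markers given with it. H2-Ab1 was found in 18 of 18 LOY cells and 38 of 38 control cells. Bhlhe40, a transcription factor of cytokine-producing and activated cells, had a UMI in 2 LOY cells and 26 control cells. Ccl17, a chemokine for T cells, had a UMI in 2 LOY cells and 3 control cells, and 1 cell in each library held most of its UMIs (15 of 17 in the LOY library, 44 of 48 in the control library). Il4i1, an enzyme of mature dendritic cells, had 0 UMIs in LOY cells and 4 UMIs in 3 control cells. H2-Ab1 was therefore found in every cell, at 1 to 80 UMIs in LOY cells and 16 to 185 in control cells. It was also found in 54.0% of LOY and 94.4% of control macrophages of these libraries. Ccl17 and Il4i1 did not mark the set in either library, and Bhlhe40 did not mark it in the LOY library.

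Several defining dendritic cell genes were sparse, although each of 11 listed lineage genes had a UMI in both libraries. Together the 11 were found in 17 of 18 LOY cells and 38 of 38 control cells, at 1112 and 1283 CPM. In the comparison sets described below they had 718 and 651 CPM (macrophages), 905 and 919 CPM (monocytes) and 1990 and 2144 CPM (other dendritic cells). Flt3, the growth factor receptor of conventional dendritic cells, was found in 1 LOY cell and 9 control cells. Zbtb46, a transcription factor of the same lineage, was found in 2 LOY cells and 11 control cells. Xcr1, which marks type 1 dendritic cells, had 0 UMIs in both libraries, and so had Itgae and Cadm1. Of the 13 type 1 genes 6 were at 0 in LOY cells and 5 in control cells. Among the others, Batf3 was found in 3 LOY cells and 23 control cells, Irf8 in 3 LOY cells and 10 control cells and Clec9a in 1 LOY cell and 2 control cells. Of 18 genes of migratory dendritic cells 12 were at 0 in LOY cells and 6 in control cells. Ccr7, the receptor that guides them to lymph nodes, had 0 UMIs in LOY cells and 1 UMI in control cells. Zbtb46 was sparse too in the LOY dendritic cells without Cd209a that are described below, with a UMI in 5 of 42 (11.9%). Its share in LOY Cd209a-positive cells was 11.1%.

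Macrophage and monocyte genes differed in how often they were found. Of 18 macrophage genes outside the rule, 10 were at 0 in LOY cells and 5 in control cells. Together the 18 had a UMI in 17 of 18 LOY cells and 38 of 38 control cells. They summed to 1031 CPM in LOY and 938 CPM in control cells, against 47267 and 32604 CPM in the macrophages described below. Adgre1, which encodes F4/80, was found in 0 LOY cells and 5 control cells, and Mertk and Ms4a7 had 0 UMIs in both libraries. Fcgr1, the CD64 receptor used to tell monocyte-derived cells from dendritic cells, was found in 6 LOY cells and 10 control cells. Ly6c2, a surface protein of classical monocytes, was found in 3 LOY cells and 4 control cells. Csf1r, the receptor for macrophage growth factor, was found in 5 LOY cells and 19 control cells. Other genes of monocytes were found more often. Ccr2 was found in 10 LOY cells and 33 control cells, Plac8 in 13 LOY cells and 11 control cells, and Ms4a4c in 11 LOY cells and 35 control cells. The markers did not settle whether single cells are dendritic or monocyte-derived.

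Defining genes of other leukocytes were near 0. The 13 T cell genes summed to 0 UMIs in LOY cells and 17 in control cells. Of 10 B cell genes, Ighm alone had UMIs (4 in LOY cells, 43 in control cells). The lists of mast cells, platelets and red cells each summed to 0 UMIs in LOY cells and to 4 or fewer in control cells. Of 9 fibroblast genes, only Gsn, an actin-severing protein that leukocytes also make, had UMIs in LOY cells (5), against 123 Gsn UMIs and 1 Lum UMI in control cells. As a measure of free RNA, Lyz2, which B cells lack, had a UMI in 23.2% of 228 LOY B cells (at least 2 Cd79a and Cd79b UMIs, median 896.5 UMIs) and 31.6% of 804 control B cells (median 2054). Its share among Cd209a-positive cells was 61.1% in the LOY library and 89.5% in the control library, at their higher depth. Cd209a itself was found in 0 LOY and 2 control B cells.

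A total of 3 cells stood apart. The LOY cell with the most UMIs (6057) held all 125 S100a8 UMIs and all 151 S100a9 UMIs of the LOY cells, all 40 Cxcl2 UMIs, 35 of 55 Il1b UMIs and 26 of 87 Ifitm1 UMIs, with 3 Cd209a UMIs. It also held the Csf3r and Retnlg UMIs of the set, neutrophil genes like S100a8. A control cell with 8053 UMIs held 33 of 36 Ly6c2 UMIs, 16 of 17 Siglech UMIs and 29 of 40 Irf8 UMIs, genes shared by plasmacytoid dendritic cells, with 2 Cd209a UMIs. Another control cell, with 12842 UMIs, held 54 of 57 Retnla UMIs, 24 of 51 Ear2 UMIs and 147 Lyz2 UMIs, with 4 Cd209a UMIs. Irf8, Ifitm1, S100a9, Retnla, the counts of genes past 2-fold and the Mgl2 split are given below with and without them.

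Y-linked transcripts were not detected in LOY cells of the set. The Y-linked genes Ddx3y, Eif2s3y, Kdm5d and Uty together had 0 UMIs in LOY cells, which allows up to 59.4 CPM by the exact Poisson interval. LOY macrophages, monocytes and other dendritic cells, described next, had 14.5, 16.4 and 17.8 CPM. These levels lie below that limit, so the count of 0 cannot tell whether every LOY cell of the set lacked the Y chromosome. In control cells of the set the Y-linked genes had 40 UMIs, or 120 CPM (exact Poisson interval 85.9 to 164), spread over 25 of 38 cells.

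A further 3 sets of cells from the same libraries served for comparison. They were macrophages (C1q at least 0.3%, 3916 LOY and 4036 control cells), classical monocytes (at least 2 Ly6c2 UMIs, 237 LOY and 190 control cells) and other dendritic cells (at least 2 UMIs of Xcr1, Clec9a and Flt3, 42 LOY and 89 control cells). The monocytes and other dendritic cells had low C1q and no Cd209a UMI by their definition.

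Genes were ranked over macrophages by the smaller of their log2 ratios in the LOY and the control library. Apart from Cd209a, Napsa, an aspartic protease, ranked first, although other genes stood further above macrophages in each single library. It had 822 CPM in LOY Cd209a-positive cells and 787 CPM in control ones, against 41.4 and 23 CPM in macrophages, 410 and 517 CPM in monocytes and 573 and 504 CPM in other dendritic cells (LOY first in each pair). It was found in 16 of 18 LOY cells and 38 of 38 control cells. B cells also held Napsa, in 30.3% of LOY and 48.5% of control cells, so it is not limited to the set.

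Klrd1, which encodes the natural killer receptor chain CD94, ranked next by the same rule. It had 161 CPM in LOY cells and 373 CPM in control cells, with a UMI in 9 of 18 and 30 of 38. Macrophages had 1.38 and 2.23 CPM, other dendritic cells 13.3 and 43.3 CPM, and monocytes 32.9 and 170 CPM. Of 10 natural killer genes, 9 were at 0 in LOY cells and 6 in control cells. Ncr1, Klrb1c, Gzma, Prf1 and Eomes had 0 UMIs in both libraries. The list summed to 10 UMIs in LOY cells and 134 in control cells, of which Klrd1 gave 10 and 124. With every cell thinned to 2000 UMIs, Klrd1 was found in 7 of 17 LOY cells and 16 of 37 control cells. In B cells Klrd1 was found in 0 of 228 LOY cells and 3 of 804 control cells.

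Genes that load MHC class II also stood above macrophages. H2-Oa, a chain of the DM inhibitor, had 193 CPM in LOY and 159 CPM in control Cd209a-positive cells, against 1.73 and 1.28 CPM in macrophages. H2-DMb2, a chain of the DM editor, had 177 CPM in both libraries, against 4.90 and 4.95 CPM in macrophages. Ciita, the master regulator of MHC class II genes, had 306 CPM in LOY cells and 249 CPM in control cells, against 33.4 and 97.3 CPM in macrophages. Itgb7, an integrin chain, had 322 CPM in LOY and 228 CPM in control cells, against 8.83 and 7.59 CPM in macrophages.

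Against classical monocytes, Clec10a ranked next to Cd209a by the same smaller ratio, although Mgl2 and Ccl17 stood further above monocytes in the control library. This galactose-binding lectin had 338 CPM in LOY and 532 CPM in control cells, against 19.4 and 29.8 CPM in monocytes. Tnfsf9, the costimulatory ligand 4-1BBL, had 113 CPM in LOY and 457 CPM in control cells, against 17.9 and 37.0 CPM in monocytes. Against other dendritic cells, several of the leading genes were also high in monocytes. The chemokine Ccl9 had 483 CPM in LOY and 448 CPM in control cells, against 0 and 6.45 CPM in other dendritic cells and 911 and 639 CPM in monocytes. S100a4, a calcium-binding protein of migrating cells, had 3593 CPM in LOY and 1740 CPM in control cells, against 31.1 and 101 CPM in other dendritic cells. Irf8, required for type 1 dendritic cells, had 64.4 CPM in LOY cells and 120 CPM in control cells (33.9 CPM without the control cell with Siglech), against 2110 and 2123 CPM in other dendritic cells, where Xcr1, Clec9a and Flt3 had chosen the cells.

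**Figure D2:**
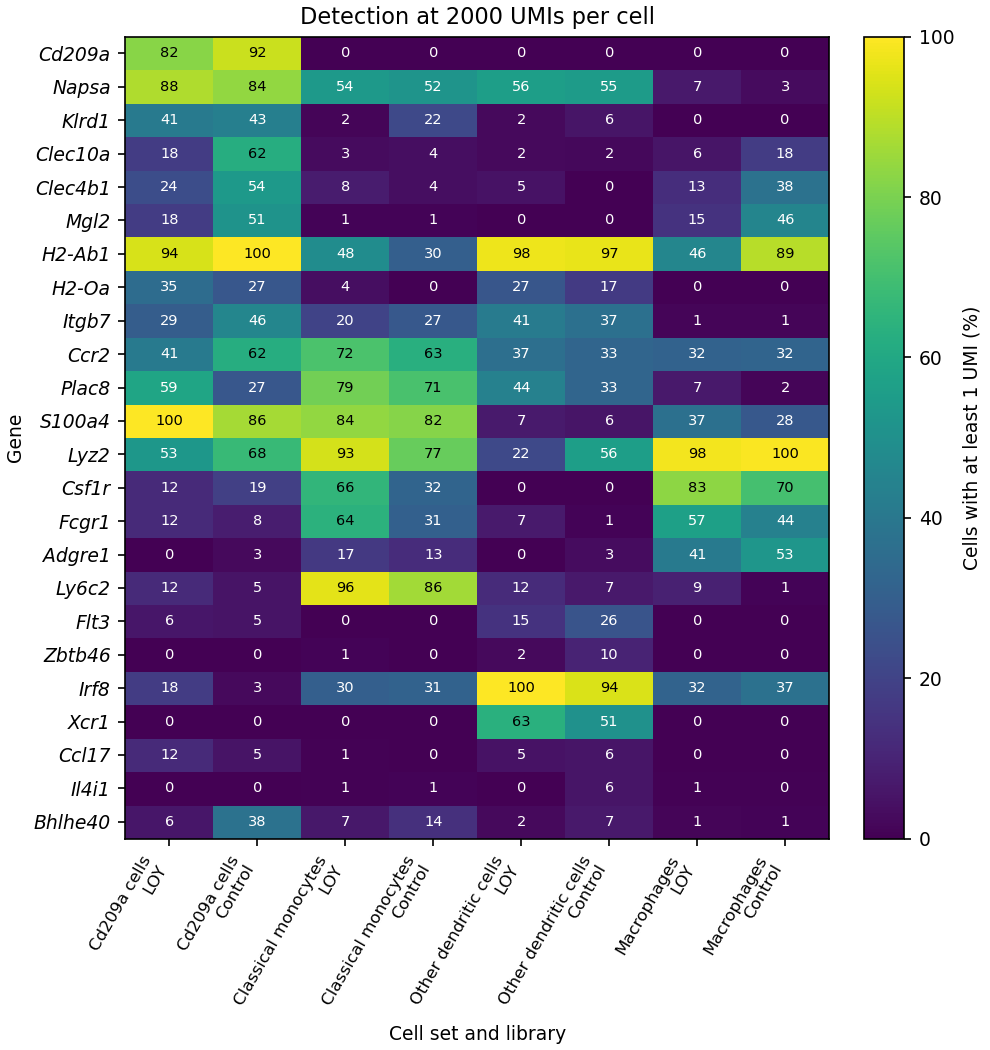
Share of cells (percent, colour and printed number) with at least 1 UMI of each gene after every cell was thinned to 2000 UMIs, for 4 cell sets, LOY left of control in each. Cd209a, C1q, Ly6c2, Xcr1, Clec9a and Flt3 defined the sets; Napsa is seen in 88.2% of LOY and 83.8% of control Cd209a-positive cells, and Ccl17 and Il4i1 in few cells of any set.

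LOY cells were then set against control cells of the set. A gene counted as measured with at least 50 UMIs over both libraries, and its difference was log2((LOY CPM + 10)/(control CPM + 10)), a scale that understates differences of low genes. Of 1040 measured genes, 63 were more than 2-fold higher in LOY cells (6.06%) and 138 more than 2-fold lower (13.3%), with a median of −0.05. LOY cells gave 15.7% of the UMIs and control cells 84.3%, so the minimum admits genes high in control cells more easily. With a minimum mean of 150 CPM over the libraries, added after seeing the data, 82 of 866 genes were higher and 87 lower. Without the LOY cell with S100a8 the counts were 57 higher and 142 lower of 1020 measured genes. Without all 3 cells that stood apart they were 51 higher and 123 lower of 952. Measured genes had a median of 15 UMIs in LOY cells and 81.5 in control cells, so most single ratios are imprecise.

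Over the same 1040 genes fewer passed 2-fold in the larger sets. In macrophages 2.31% were higher and 5.96% lower, in monocytes 3.37% and 5.67%, and in other dendritic cells 3.08% and 7.12%. Smaller sums scatter more, and no test of a difference between sets was made. Ribosomal-protein genes took a median of 26.6% of UMIs in LOY cells and 21.3% in control cells, against 15.7% and 12.8% in macrophages. With CPM computed without ribosomal-protein, mitochondrial and haemoglobin genes, 75 of 950 genes were more than 2-fold higher and 121 lower in LOY cells.

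**Figure D3:**
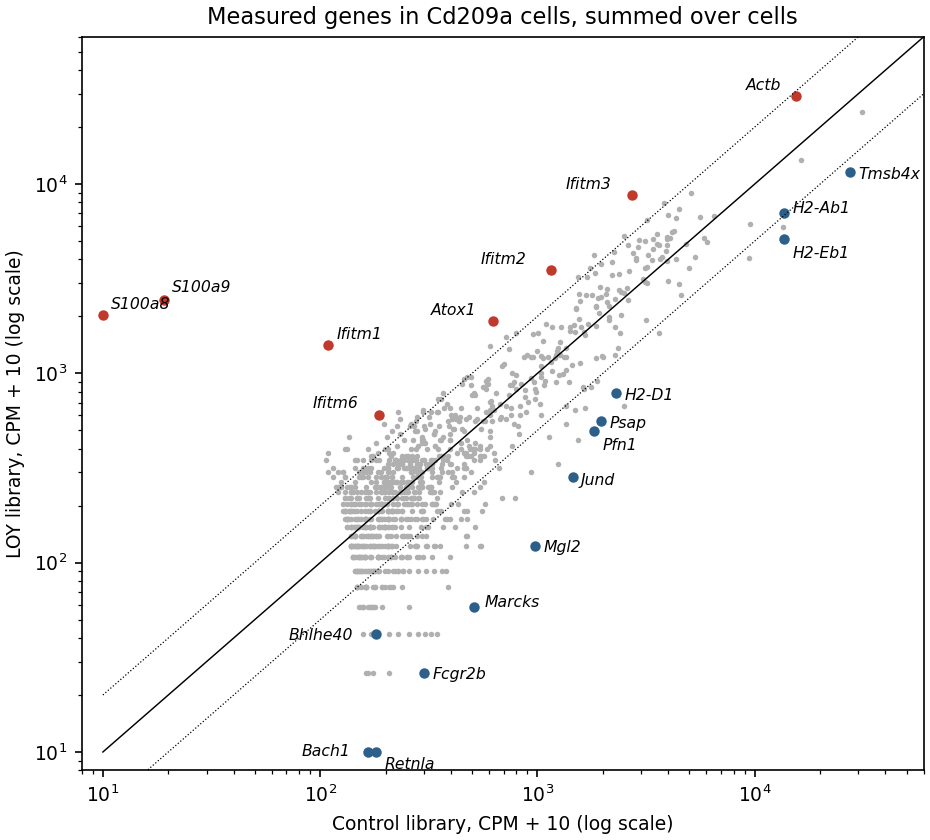
LOY against control levels (CPM + 10, log scales) of the 1040 measured genes, summed over 18 LOY and 38 control Cd209a-positive cells; the solid line marks equality and dotted lines 2-fold. Coloured genes are named in the text (red above equality, blue below it); S100a8 and S100a9 lie far above the line, and Ifitm3 and Ifitm2 stand out among abundant genes.

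Genes of the interferon-induced transmembrane (Ifitm) family were higher in LOY cells. These membrane proteins hinder the entry of viruses into cells, and their genes lie together on chromosome 7. Of 7 members with a symbol in the feature list, 4 were measured and all 4 passed 2-fold upward (6.06% over all measured genes). The family was picked out after its values were seen, so its count is a description.

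Ifitm3 had 8748 CPM in LOY cells and 2719 CPM in control cells, a 3.22-fold difference (2.89 to 3.58). Per 10000 UMIs of a cell, it ran from 9.84 to 253 with a median of 83.4 in LOY cells, and from 1.41 to 72.9 with a median of 22.9 in control cells. Most LOY cells thus stood above every control cell, with some overlap at the low end. The log2 difference was 1.68 in Cd209a-positive cells, 0.88 in macrophages, 1.17 in monocytes and 1.70 in other dendritic cells, so it was not particular to the set.

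Ifitm2 had 3496 CPM in LOY cells and 1148 CPM in control cells, a 3.05-fold difference (2.57 to 3.61). Its log2 difference was 1.60, against 0.45 in macrophages, 0.54 in monocytes and 1.05 in other dendritic cells. Ifitm6 had 596 CPM in LOY cells and 177 CPM in control cells, 3.36-fold (2.17 to 5.16), and was found in 15 of 18 and 25 of 38. Its log2 difference was 1.69, against −0.05 in macrophages, 0.20 in monocytes and 0.22 in other dendritic cells. With cells thinned to 2000 UMIs, Ifitm6 was found in 11 of 17 LOY cells and 12 of 37 control cells.

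Ifitm1 had 1402 CPM in LOY cells and 99.2 CPM in control cells, 14.1-fold (9.37 to 21.8). It was found in 10 of 18 LOY cells and 4 of 38 control cells, and 1 control cell held 19 of 33 UMIs. Without the LOY cell with S100a8, the LOY level was 1089 CPM and the log2 difference 3.33, against 3.69 with it. In macrophages, monocytes and other dendritic cells the log2 difference of Ifitm1 was 0.39, −0.62 and −0.36. Of 23 genes of the interferon list 3 were measured, and of these Ifitm3 passed 2-fold upward (6.06% over all measured genes). Isg15, a ubiquitin-like modifier, had 483 CPM in LOY cells and 264 CPM in control cells, and Bst2 (tetherin) had 354 CPM in LOY cells and 379 CPM in control cells.

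The 150 bases before the start of the most abundant pair, Ifitm3 and Ifitm2, are shown because these genes differed together. They come from RefSeq on GRCm38.p6, at chr7:141010745-141010894 and chr7:140955962-140956111, both on the minus strand, and run 5′ to 3′. Capitals mark a match to the core of the interferon-stimulated response element, GAAA, any 2 bases, then GAAA, searched on both strands. This motif was found in 2.98% of 32851 mouse promoter windows of 250 bases. The match starts 46 bases before the Ifitm2 start, and the Ifitm3 window shown holds no match. The 150 bases before the Ifitm1 and Ifitm6 starts, which are not shown, hold no match either.
Ifitm3: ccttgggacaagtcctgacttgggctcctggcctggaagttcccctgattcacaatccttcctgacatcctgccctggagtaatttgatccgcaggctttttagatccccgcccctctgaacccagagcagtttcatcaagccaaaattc
Ifitm2: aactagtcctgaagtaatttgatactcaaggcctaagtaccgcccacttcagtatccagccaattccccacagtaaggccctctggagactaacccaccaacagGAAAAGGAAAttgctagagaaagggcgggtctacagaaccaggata

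Among the genes of the MHC class II chains, H2-Eb1 and H2-Aa were more than 2-fold lower in LOY cells. H2-Eb1 had 5107 CPM in LOY cells and 13630 CPM in control cells, 0.37-fold (0.33 to 0.42). Per 10000 UMIs of a cell it ran from 3.76 to 135 with a median of 48.4 in LOY cells, and from 7.45 to 226 with a median of 142 in control cells. H2-Aa had 5945 CPM in LOY cells and 13438 CPM in control cells, 0.44-fold (0.40 to 0.49). H2-Ab1 had 7056 CPM in LOY cells and 13642 CPM in control cells, 0.52-fold (0.47 to 0.57), just short of 2-fold on the log2 scale (−0.95). The ranges of the cells overlapped for all 3 chains.

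The loading genes did not follow the chains. H2-DMb1 had 1079 CPM in LOY cells and 1034 CPM in control cells, and the counting intervals of its fold and of those of H2-DMb2, H2-Oa and Ciita included no difference. H2-DMa had 886 CPM in LOY cells and 1211 CPM in control cells, 0.73-fold (0.54 to 0.97). Cd74, the invariant chain that guards the groove, had 23875 CPM in LOY cells and 31214 CPM in control cells, 0.76-fold (0.72 to 0.81). Ifi30, a thiol reductase of antigen processing, had 1659 CPM in LOY cells and 1400 CPM in control cells. Of 11 measured members of 13, 2 were more than 2-fold lower, a share near the 13.3% of all measured genes, and 0 higher, and the median was −0.36 (−0.83 with cells thinned to 2000 UMIs before the rule).

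The same list differed in the other sets in both directions. Its median was −1.29 in macrophages, 0.92 in monocytes and 0.10 in other dendritic cells. H2-Eb1 itself had a log2 difference of −1.41 in Cd209a-positive cells, −2.50 in macrophages, 0.81 in monocytes and −0.43 in other dendritic cells. Within the LOY library the summed H2-Ab1 level was higher in cells with fewer Cd209a UMIs, the reverse of the control library, as given above for the edge of the rule. That LOY order leans on single cells and was not tested. A LOY cell with 2 Cd209a UMIs had 80 H2-Ab1 UMIs, and the LOY cell with 7 Cd209a UMIs had 43, the next highest count.

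The 150 bases before the H2-Aa and H2-Eb1 starts are shown because these chains differed most in the list. They come from RefSeq on GRCm38.p6, at chr17:34287824-34287973 (minus strand) and chr17:34305717-34305866 (plus strand), and run 5′ to 3′. Capitals mark the core of the X box, CTNGCAACT, and the Y box, CTGATTGG, the elements to which the complex that recruits CIITA is known to bind. Both were searched on both strands, and 0.779% and 3.83% of 32851 promoter windows of 250 bases hold them. The X box core starts 84 bases before the H2-Aa start and 94 bases before the H2-Eb1 start, and the Y box 51 and 62 bases before.
H2-Aa: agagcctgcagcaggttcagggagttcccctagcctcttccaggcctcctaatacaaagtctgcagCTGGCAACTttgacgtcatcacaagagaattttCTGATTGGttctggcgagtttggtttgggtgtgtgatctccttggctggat
H2-Eb1: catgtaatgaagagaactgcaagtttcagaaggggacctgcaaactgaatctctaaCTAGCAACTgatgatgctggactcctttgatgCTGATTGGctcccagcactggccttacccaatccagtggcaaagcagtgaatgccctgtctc

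**Figure D4:**
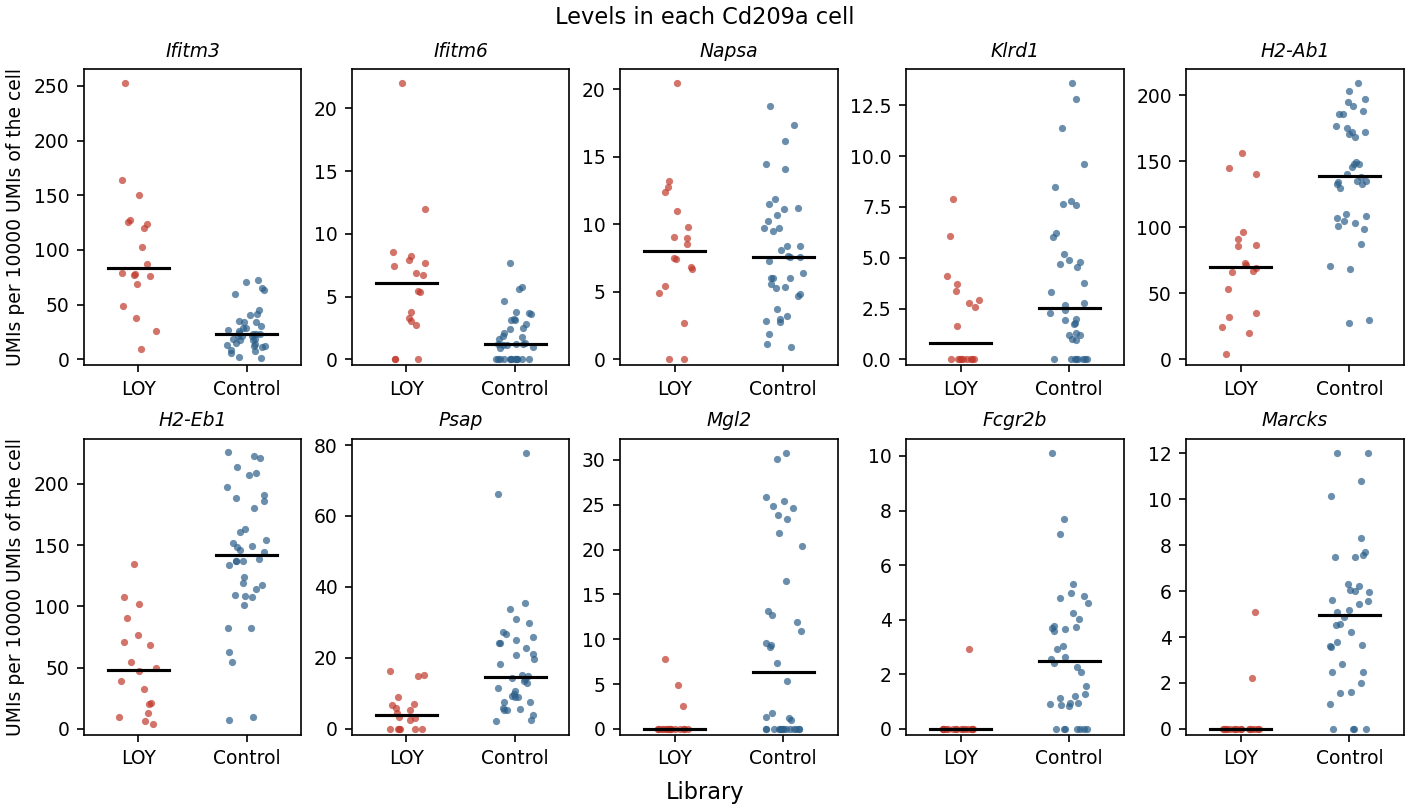
Levels of 10 genes in each Cd209a-positive cell (UMIs per 10000 UMIs of the cell), LOY (18 cells) left of control (38 cells); bars are medians. Ifitm3 is higher in LOY cells (median 83.4 against 22.9), H2-Eb1 lower (48.4 against 142), Napsa alike in median, and Fcgr2b and Marcks are at 0 in nearly all LOY cells.

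Of 17 genes of the MHC class I pathway 10 were measured, of which 5 were more than 2-fold lower in LOY cells (13.3% over all measured genes) and 0 higher, with a median of −1.01 against −0.46 in macrophages, −0.22 in monocytes and −0.42 in other dendritic cells. H2-D1, a class I heavy chain, had 773 CPM in LOY cells and 2299 CPM in control cells, 0.34-fold (0.25 to 0.45). Per 10000 UMIs of a cell it reached at most 16.5 in LOY cells, against a control range of 7.75 to 44.1. B2m, the light chain of class I, had 902 CPM in LOY cells and 1863 CPM in control cells, 0.48-fold (0.36 to 0.64). Psmb8, a subunit of the immunoproteasome, had 886 CPM in LOY cells and 953 CPM in control cells. Class I heavy chains resemble each other in sequence, so reads of H2-Q7 and its neighbours may be split between them.

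Genes of type 2 dendritic cells and lectins varied. Of 13 type 2 genes 8 were measured, and 2 were lower, Mgl2 and Klf4 (13.3% over all measured genes). The median was −0.57, against −0.88 in macrophages, 0.12 in monocytes and −0.23 in other dendritic cells, so a lower median was not particular to the set. With a minimum of 3 Cd209a UMIs it was −1.25 in Cd209a-positive cells. Mgl2, a lectin for galactose-bearing sugars next to Clec10a in the genome, had 113 CPM in LOY cells and 965 CPM in control cells, 0.12-fold (0.05 to 0.24). It was found in 3 of 18 LOY cells and 24 of 38 control cells, and after thinning to 2000 UMIs in 3 of 17 and 19 of 37. The log2 difference of Mgl2 was −2.99 here, −1.56 in macrophages, 0.91 in monocytes and 0.08 in other dendritic cells. That of Clec10a was −0.64 here and −1.76 in macrophages, −0.43 in monocytes and 0.08 in other dendritic cells. Klf4, a transcription factor needed for some type 2 cells, had 96.7 CPM in LOY cells and 240 CPM in control cells, a direction that turned with cells thinned to 1000 UMIs (log2 0.21). Clec4b1, a lectin of dendritic cells, had 161 CPM in LOY cells and 433 CPM in control cells, found in 5 of 18 and 36 of 38. Kmo, an enzyme of tryptophan breakdown, did not reach the minimum, with 161 CPM in LOY cells and 81.1 CPM in control cells.

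Of 28 listed transcription factors of myeloid cells 10 were measured, of which 6 were more than 2-fold lower in LOY cells (Irf5, Klf4, Zeb2, Rbpj, Bhlhe40 and Etv3; 13.3% over all measured genes) and 0 higher, with a median of −1.28 against −0.28 in macrophages. Zeb2, which shapes monocytes and type 2 dendritic cells, had 96.7 CPM in LOY cells and 388 CPM in control cells, found in 5 of 18 and 35 of 38. Rbpj, the nuclear partner of Notch, had 80.6 CPM in LOY cells and 273 CPM in control cells. Bhlhe40 had 32.2 CPM in LOY cells and 171 CPM in control cells, and after thinning was found in 1 of 17 LOY cells and 14 of 37 control cells. Spi1 (PU.1) had 354 CPM in LOY cells and 352 CPM in control cells. With the minimum of 150 mean CPM the median of the list was −0.76.

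The genes lowest in LOY cells included receptors and signalling genes. Fcgr2b, the inhibitory receptor for antibodies, had 1 UMI in LOY cells and 97 in control cells, or 16.1 CPM in LOY cells and 291 CPM in control cells, and was found in 1 of 18 and 31 of 38. Marcks, a membrane protein that binds actin, had 3 UMIs in LOY cells and 167 in control cells, in 2 of 18 and 34 of 38. After thinning to 2000 UMIs, Fcgr2b was found in 0 of 17 LOY cells (which allows up to 19.5% by the exact interval) and 16 of 37 control cells, and Marcks in 1 of 17 LOY cells and 17 of 37 control cells. In B cells of these libraries Marcks was found in 6.14% of LOY cells and 8.08% of control cells.

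Bach1, a repressor of heme and antioxidant genes, had 0 UMIs in LOY cells and 52 in 22 control cells. With LOY cells set at the limit of 3 counts, its level would be 3.23-fold lower there. The exact interval of the LOY over control fold runs from 0 to 0.39. In macrophages Bach1 had 123 CPM in LOY cells and 110 CPM in control cells. Tnip3, an inhibitor of NF-κB signalling, had 32.2 CPM in LOY cells and 337 CPM in control cells. Retnla, also among the lowest, had 0 UMIs in LOY cells, and its control level was 9.38 CPM without the 1 control cell that held 54 of its 57 UMIs. Its log2 difference was −2.40 in macrophages, −0.19 in monocytes and −0.72 in other dendritic cells. Bcl2a1b and Bcl2a1d, survival genes of a family of near-identical copies, had 32.2 and 16.1 CPM in LOY cells and 294 and 156 CPM in control cells, and the counting could split their reads.

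Immediate early genes and their feedback regulators are induced within minutes by stimulation and by tissue digestion. Of 30 genes 25 were measured, of which 11 were more than 2-fold lower in LOY cells, where 13.3% of all measured genes were, and 0 higher, with a median of −0.79. The medians were −1.27 in macrophages, −0.69 in monocytes and −0.82 in other dendritic cells. Jund, an AP-1 subunit, had 274 CPM in LOY cells and 1442 CPM in control cells, 0.19-fold (0.11 to 0.31). Btg2, an antiproliferative gene, had 435 CPM in LOY cells and 1526 CPM in control cells. Fos had 1208 CPM in LOY cells and 1337 CPM in control cells, and Atf3 had 628 CPM in LOY cells and 592 CPM in control cells, so members of the list differed by unequal amounts.

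Of 19 lysosomal genes 12 were measured, of which 3 were more than 2-fold lower (13.3% over all measured genes), among them Psap and Ctsc (which turned to 0.032 with cells thinned to 2000 UMIs), and 0 higher, with a median of −0.48 against 0.30 in macrophages. Psap, the precursor of the saposins that help to break down sphingolipids, had 548 CPM in LOY cells and 1950 CPM in control cells, 0.28-fold. Its log2 difference was −1.81, against −0.18 in macrophages, 0.07 in monocytes and 0.06 in other dendritic cells. Per 10000 UMIs of a cell Psap ran from 0 to 16.3 in LOY cells and from 2.14 to 77.9 in control cells. Ctsz, a cathepsin, had 870 CPM in LOY cells and 577 CPM in control cells.

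Actb and Pfn1 differed by a like amount in all 4 sets. Actb (β-actin) had 29224 CPM in LOY cells and 15493 CPM in control cells, with log2 differences of 0.92 here, 1.03 in macrophages, 1.14 in monocytes and 1.02 in other dendritic cells. Pfn1 (profilin) had 483 CPM in LOY cells and 1809 CPM in control cells, with −1.88 here, −1.83 in macrophages, −2.17 in monocytes and −1.97 in other dendritic cells. Of 20 actin genes 18 were measured, with a median of −0.10. Of these 1 was higher and 3 lower, shares near the 6.06% and 13.3% of all measured genes. Atox1, a copper chaperone, behaved like Actb, with 1885 CPM in LOY cells and 616 CPM in control cells and log2 differences of 1.60 here and 1.41, 1.36 and 1.38 in macrophages, monocytes and other dendritic cells.

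All 7 S100 genes were measured, of which 4 were more than 2-fold higher in LOY cells (6.06% over all measured genes) and 0 lower, and their median was 1.04 (0 without the top cell of each gene). S100a8 and S100a9, with 2014 and 2433 CPM in LOY cells and 0 and 9.01 CPM in control cells, came from 1 LOY cell, and S100a9 was lower in LOY cells without it (log2 −0.93). S100a4 had 3593 CPM in LOY cells and 1740 CPM in control cells, 2.06-fold (1.76 to 2.41). S100a11 had 1547 CPM in LOY cells and 709 CPM in control cells, 2.18-fold (1.70 to 2.78), and both were found in 18 of 18 LOY cells.

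**Figure D5:**
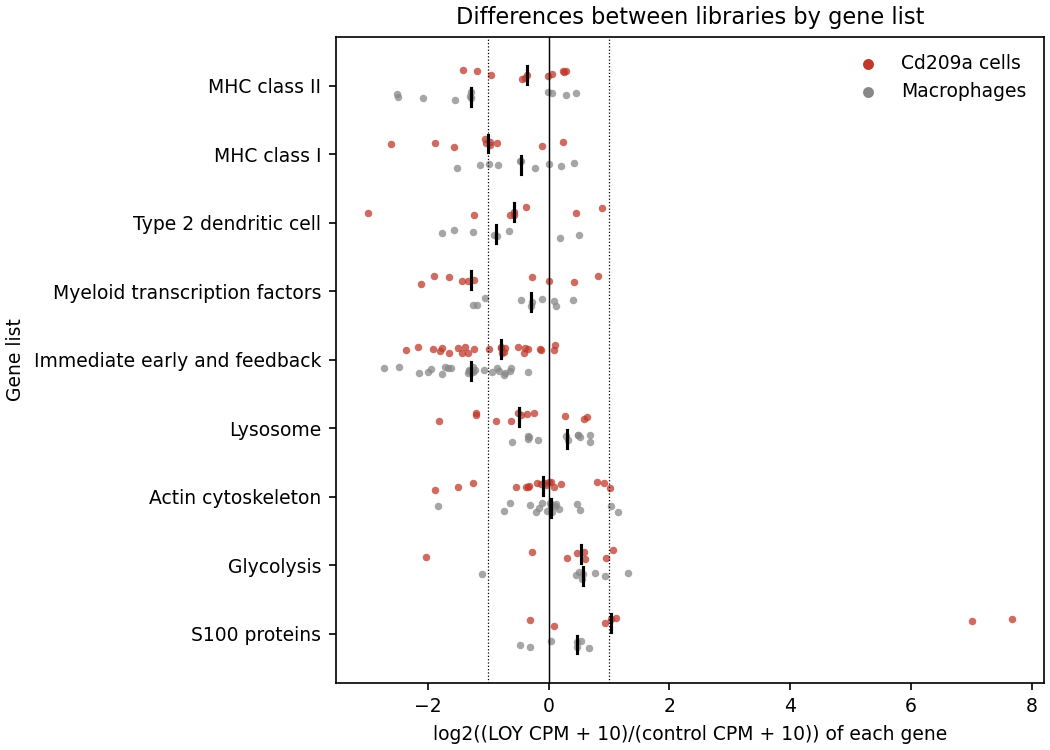
Difference between LOY and control levels, log2((LOY CPM + 10)/(control CPM + 10)), of each measured gene in 9 lists, in Cd209a-positive cells (red) and macrophages (grey); black bars are medians and dotted lines 2-fold. Most early genes lie below 0 in both sets, while transcription factors (median −1.28 against −0.28) and lysosomal genes (−0.48 against 0.30) lie lower in Cd209a-positive cells; S100a8 and S100a9 lie far to the right.

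Genes tied to the title of the study were few. Tgfb1, a growth factor that drives fibrosis, had 306 CPM in LOY cells and 219 CPM in control cells, 1.40-fold (0.80 to 2.34), an interval that includes no difference. Ccr2, the receptor that brings monocytes out of the marrow, had 306 CPM in LOY cells and 658 CPM in control cells, 0.47-fold (0.27 to 0.74). Of 21 profibrotic genes 2 were measured, and neither passed 2-fold.

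The control cells fell into cells with and without Mgl2, a split made from the data. The 24 cells with Mgl2 had a median of 8887 UMIs and the 14 without it a median of 8277. Mrc1, the mannose receptor, had 301 CPM in cells with Mgl2 and 25.0 CPM in cells without it. Plac8, a gene of monocytes and plasmacytoid cells, had 89.3 CPM in cells with Mgl2 and 958 CPM in cells without it, found in 2 of 24 and 9 of 14. Il1b had 747 CPM in cells with Mgl2 and 2525 CPM in cells without it. H2-Ab1 had 14323 CPM in cells with Mgl2 and 12434 CPM in cells without it. Without the control cells with Siglech and with Retnla, 23 cells with Mgl2 and 13 without it remained. Plac8 then had 95.0 CPM in cells with Mgl2 and 724 CPM in cells without it, Mrc1 had 270.1 and 26.8 CPM and Il1b 795 and 2707 CPM in the same order. LOY cells had Plac8 in 13 of 18 cells and Mgl2 in 3 of 18.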

How the data were processed

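Cells sorted from pooled left ventricles of 3 mice per group were sequenced with a 10x Genomics 3' kit, per the labels' protocols. Per the submitters' processing notes, reads were processed with Cell Ranger 5.0.0 on mm10; the annotation release and the barcode filter are not given in the sources used here. The authors deposited whole UMI counts for each barcode, without normalization, for 32286 features including RFP. Gene positions come from GENCODE M21 and promoters from RefSeq.

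Barcodes needed 500 UMIs, 200 genes and a mitochondrial share of no more than 10% (Python 3.11.15, scanpy 1.11.5, numpy 2.4.6, scipy 1.17.1, pandas 2.3.3). UMIs were summed per set and library and scaled to CPM. Folds are plain CPM ratios with exact conditional intervals, sums have exact Poisson and shares exact Clopper-Pearson intervals (95%). Where a gene had 0 UMIs, 3 counts were taken as the limit. Shares at equal depth use cells thinned to 2000 UMIs. Doublets were scored with scrublet per library, and the highest 0.8% per 1000 barcodes marked (237 LOY and 407 control cells). The ratio calculation was checked on simulated counts.

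Named genes are the members of 42 lists (527 symbols, 1 not used here because no feature carries it), the 15 highest and 15 lowest differences, and the genes furthest above macrophages (20), monocytes (10) and other dendritic cells (10). They had at least 50 CPM and 50 UMIs, leaving out unnamed models and genes of mitochondria, ribosomal proteins, haemoglobins, antibodies and T cell receptors. The Ifitm family, the respiratory chain genes, the 3 cells described apart and the Mgl2 split were chosen after values were seen. The members and lists were chosen with earlier results of these data known. The values of 1 listed gene are not reported here.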

Additional observations from a re-analysis of the deposited data

Results flagged for a closer look

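For 4 genes the difference between LOY and control went beyond 2-fold one way in Cd209a-positive cells and beyond 2-fold the other way in another cell set. None of these contrasts between sets was tested. S100a8 had a log2 difference of 7.66 in Cd209a-positive cells, −3.19 in monocytes and −2.31 in other dendritic cells. S100a9 had 7.01 in Cd209a-positive cells, −3.82 in monocytes and −3.60 in other dendritic cells. All LOY UMIs of both genes came from 1 cell, and without it S100a9 was −0.93. Mcemp1, a mast cell and monocyte membrane protein, had 274 CPM in LOY cells and 120 CPM in control cells (log2 1.12), against −1.01 in other dendritic cells, where it had 0 and 10.1 CPM. S100a4 had 1.04 in Cd209a-positive cells and −1.44 in other dendritic cells, where it had 31.1 CPM in the LOY library and 101 CPM in the control library.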

How the results depend on the processing

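The set is small, so single cells weigh much, and LOY values rest on 62073 UMIs against 332800 in control cells. No paired analysis was possible because each group is 1 pooled library with no replicate number. The count of genes higher in LOY cells (63 of 1040 measured) was 15 of 99 and 12 of 211 with cells thinned to 1000 and 2000 UMIs. It was 39 with 50 CPM added, 170 at 1.5-fold, 1110 of 10415 with no minimum and 14 of 252 with at least 200 UMIs. The count lower (138 of 1040) was 13 of 99 and 31 of 211 with the same thinning, and 259 at 1.5-fold. It was 2000 of 10415 with no minimum, 26 of 252 with at least 200 UMIs and 87 of 866 with a mean of at least 150 CPM. The LOY share was 0.683% at 1 Cd209a UMI, 0.166% at 3, and 0.120% after thinning to 1000 UMIs, where the control share was 0.303% and the control Y-linked sum 333 CPM. Medians moved to −1.25 for type 2 genes (minimum of 3 Cd209a UMIs), −0.83 for MHC class II (thinned to 2000) and 0 for S100 genes without each gene's top cell. Directions turned for Ctsc (0.032) and H2-Q7 (0.19) at 2000 UMIs, and for H2afj (−3.40), Klf4 (0.21) and Klrd1 (0.21) at 1000 UMIs. S100a9 turned to −1.45 at 2000 UMIs, −0.97 with doublets removed, −0.73 without Ly6c2 cells, −0.93 without its cell, −0.97 without the 3 cells that stood apart, −0.96 without each library's deepest cell and −0.69 without the top cell of each gene. Thinning tests fewer cells and genes (10 LOY and 29 control cells and 211 genes at 2000 UMIs). For other turns the cause was not tested. Over 187 results and their settings, 4021 of 4282 values stayed within the counting interval of the main value, and 249 left it. The other 12 turned sign from a main difference beyond 2-fold. Turns of smaller differences were not counted as such.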

Other observations

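Nuclear genes of the mitochondrial respiratory chain were collected after differences of single members were seen. Of 90 genes 51 were measured, of which 8 were more than 2-fold higher in LOY cells and 1 lower (6.06% and 13.3% over all measured genes). Their median was 0.37, against 0.49 in macrophages, 0.19 in monocytes and 0.48 in other dendritic cells. Uqcr10, a subunit of complex III, had 451 CPM in LOY cells and 126 CPM in control cells. Ndufb7, a subunit of complex I, had 419 CPM in LOY cells and 171 CPM in control cells. Atp5g2, a subunit of the ATP synthase, was the 1 lower gene, with 258 CPM in LOY cells and 559 CPM in control cells.

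Glycolytic genes were mixed. Of 15 genes 8 were measured, with a median of 0.53. Pkm (pyruvate kinase) had 612 CPM in LOY cells and 288 CPM in control cells, whereas Eno1 (enolase) had 32.2 CPM in LOY cells and 162 CPM in control cells. Eno1 has near-identical pseudogene copies that can take reads.

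Proliferation genes were held by few cells. Of the summed UMIs of 18 cell cycle genes, 1 cell held 74.4% in the LOY library and 1 cell held 46.1% in the control library. Mki67, a marker of dividing cells, was found in 2 LOY cells and 4 control cells.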
